A study of Homo sapiens with 6 samples.

Results

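The interleukin 1 family and its receptors were followed through 9 genes in L3.6pl cells, a human line established from pancreatic cancer. The genes are IL1A, IL1B, IL1RN, IL1R1, IL1R2, IL1RAP, IL1RL1, IL18 and IL33. They were chosen by family membership, as rows whose symbol is one of these names, and all 9 were found among 23245 usable rows. The choice was made with earlier results of these data known. Messenger RNA was sequenced from 3 libraries labelled ARID1A-deficient and titled ARID1A knockout, and from 3 parental libraries with wild-type ARID1A. Both groups were grown in the same medium with fetal calf serum and received no drug. The labels do not say how ARID1A was disrupted or whether the deficient cells are 1 clone, and no sample restores the gene, so an effect of ARID1A loss and other differences between the cells cannot be told apart. Nothing in the labels says that the 3 libraries of a group came from separate cultures, so p-values measure the spread between these samples, which may be technical.

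Interleukin 1 alpha and interleukin 1 beta, the products of IL1A and IL1B, signal through the receptor IL1R1, which recruits the accessory protein IL1RAP. The antagonist made from IL1RN occupies IL1R1 without signalling, and IL1R2 is a decoy that binds ligand but passes on no signal. IL33 uses the receptor IL1RL1, also called ST2, with the same accessory protein IL1RAP, whereas IL18 uses IL18R1 with IL18RAP and is neutralised by the binding protein IL18BP. The receptor complexes share the adaptor MYD88 and the IRAK kinases and lead to NF-kB and MAP kinase activation. In epithelia, IL1A, IL18 and IL33 are made as stored precursors, and the ligands IL1B and IL18 are cut to their active form by caspase-1.

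The promoters below are those of IL33 and IL1RL1, whose calls held whichever library was left out, and of IL1A and IL1RN, which lie in 1 gene cluster on chromosome 2 and had higher values in every ARID1A-deficient library than in any parental library. Each runs from 250 bases before to 50 bases after a RefSeq start site on build GRCh38.p14, 5′ to 3′ on the gene's strand. Capitals mark an AP-1 type motif (TGANTCA) or, in IL1RN, an NF-kB type motif (GGG and TTCC with any 3 bases between them). IL1A is shown at chr2:112784444-112784743 (minus strand), IL1RN at the last of its 3 start sites, chr2:113127348-113127647 (plus strand), and IL33 at the last of its 2, chr9:6215557-6215856 (plus strand). IL1RL1 is shown at both its start sites, chr2:102311313-102311612 and chr2:102337007-102337306 (plus strand).
IL1A: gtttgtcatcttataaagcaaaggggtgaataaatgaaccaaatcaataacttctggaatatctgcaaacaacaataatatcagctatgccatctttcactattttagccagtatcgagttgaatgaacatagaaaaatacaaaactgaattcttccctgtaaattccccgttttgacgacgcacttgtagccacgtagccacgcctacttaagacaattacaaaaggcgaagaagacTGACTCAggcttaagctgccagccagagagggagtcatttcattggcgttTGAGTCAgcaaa
IL1RN: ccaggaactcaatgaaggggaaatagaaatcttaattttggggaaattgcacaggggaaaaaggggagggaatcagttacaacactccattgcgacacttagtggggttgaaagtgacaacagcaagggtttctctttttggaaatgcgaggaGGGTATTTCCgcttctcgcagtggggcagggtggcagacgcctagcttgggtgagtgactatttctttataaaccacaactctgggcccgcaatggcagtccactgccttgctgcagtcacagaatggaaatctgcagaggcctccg
IL33: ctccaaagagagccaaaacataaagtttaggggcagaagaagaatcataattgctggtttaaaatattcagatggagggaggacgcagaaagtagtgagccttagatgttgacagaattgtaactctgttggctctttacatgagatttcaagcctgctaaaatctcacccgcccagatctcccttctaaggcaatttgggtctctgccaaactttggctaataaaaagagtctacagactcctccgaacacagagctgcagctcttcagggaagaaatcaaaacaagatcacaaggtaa
IL1RL1 first start site: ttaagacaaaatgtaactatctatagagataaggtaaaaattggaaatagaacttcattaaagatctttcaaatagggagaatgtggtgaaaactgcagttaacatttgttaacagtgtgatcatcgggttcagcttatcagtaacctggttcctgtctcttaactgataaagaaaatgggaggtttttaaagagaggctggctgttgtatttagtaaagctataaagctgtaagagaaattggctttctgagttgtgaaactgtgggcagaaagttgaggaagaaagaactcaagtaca
IL1RL1 second start site: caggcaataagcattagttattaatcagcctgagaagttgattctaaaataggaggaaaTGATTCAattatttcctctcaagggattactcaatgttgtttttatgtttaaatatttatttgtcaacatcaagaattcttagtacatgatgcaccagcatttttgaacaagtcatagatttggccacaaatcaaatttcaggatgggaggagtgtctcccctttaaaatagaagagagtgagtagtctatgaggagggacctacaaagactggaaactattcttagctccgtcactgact
The 2 matches in IL1A begin 12 bases before and 38 bases after the start site. The match in the second IL1RL1 promoter begins 191 bases before its start site, and the match in IL1RN begins 97 bases before. Both strands were searched in all 35116 promoters of the table, and the AP-1 type motif was found in 7.71% of them and in 4 of the 17 member promoters (in IL1A, IL1RL1 and IL1RN; both IL1A windows overlap and hold the same matches). The NF-kB type motif was found in 6.52% of all promoters and in 2 overlapping windows of IL1RN. The CRE type motif TGACGTCA was found in 1.85% of all promoters and in none of the member promoters. No binding was measured, so these are matches of letters only.

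Values were deposited as FPKM, which are fragment numbers per kilobase of transcript set relative to library size, so levels of different genes can be set side by side. The libraries summed to between 576084 and 792187 FPKM, with 15635 to 16391 rows above 0. ARID1A itself measured 3.55, 3.28 and 3.61 FPKM in ARID1A-deficient libraries 1, 2 and 3, against 11.8, 6.76 and 9.42 FPKM in parental libraries 1, 2 and 3, and it was lower with a limma adjusted p = 0.00610. The epithelial markers KRT7, KRT8, KRT18, KRT19, EPCAM and CDH1 summed to 4527 to 5723 FPKM in ARID1A-deficient libraries and 6286 to 9831 FPKM in parental libraries. None of them passed limma. At an unadjusted p under 0.05, 4 were lower, and the share of all tested genes under that limit was not counted. Of 16 leukocyte markers, 8 were listed at 0 in every library, among them ITGAM, CD163 and CD3D. The pan-leukocyte gene PTPRC was at 0 in 5 of 6 libraries. CD68, a lysosomal gene not restricted to leukocytes, was lower (limma adjusted p = 0.0346), and the other 15 reached 0.645 FPKM at most. The 6 fibroblast markers, none high enough to be tested, summed to 0.214 to 0.303 FPKM in ARID1A-deficient libraries and 0.0176 to 0.137 FPKM in parental libraries. DCN and LUM were at 0 throughout, and PDGFRA measured 0.258, 0.197 and 0.258 FPKM in ARID1A-deficient libraries against 0.0206, 0.0788 and 0.0101 FPKM in parental libraries (unfiltered limma adjusted p = 0.00864). COL6A3 went the other way, at 0 in every ARID1A-deficient library and 0.00765, 0.0433 and 0.00749 FPKM in parental libraries (unfiltered limma adjusted p = 0.512). The groups of PDGFRB and THY1 overlapped. The 5 endothelial markers summed to 8.66 to 9.23 FPKM in ARID1A-deficient libraries and 8.45 to 10.0 FPKM in parental libraries, and 1 of the 2 tested, PECAM1, was lower (limma adjusted p = 0.0254). CDH5, the highest endothelial marker, did not pass (log2 fold change 0.10, limma adjusted p = 0.594). The epithelial sum, itself not tested, CD68 and PECAM1 were thus lower in the ARID1A-deficient group, and PDGFRA was higher. The part of these differences in the results below was not tested.

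Of the 9 members, 4 reached the mean of 0.5 FPKM needed for testing, and 2 rose, 1 fell and 1 did not pass the threshold in ARID1A-deficient cells. Across all 12826 tested genes 15.9% passed the same limma test, 7.82% higher and 8.11% lower. The ligand genes IL33 and IL18 rose, and IL1RL1, the receptor for IL33, fell. The median log2 fold change of the 4 tested members was 0.74, against -0.01 over all tested genes. Because IL33 was tested only through its high ARID1A-deficient libraries, this median and the count that rose are not independent of its rise. The other 5 members were under 0.5 FPKM on average and are given by their values, with the adjusted p that the same test gave when no filter was applied. Over the 9 members, 7 had groups that did not overlap, 5 higher and 2 lower, where 31.2% of all rows above 0 did so, 16.2% higher and 15% lower. IL1RN was among those rows through its ARID1A-deficient libraries alone, so its place in this count is not independent of its rise. Groups were apart in all 4 tested members and in 35.3% of tested genes. Since each library is a bulk sample, fewer expressing cells and less RNA per cell cannot be told apart.

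**Figure D1:**
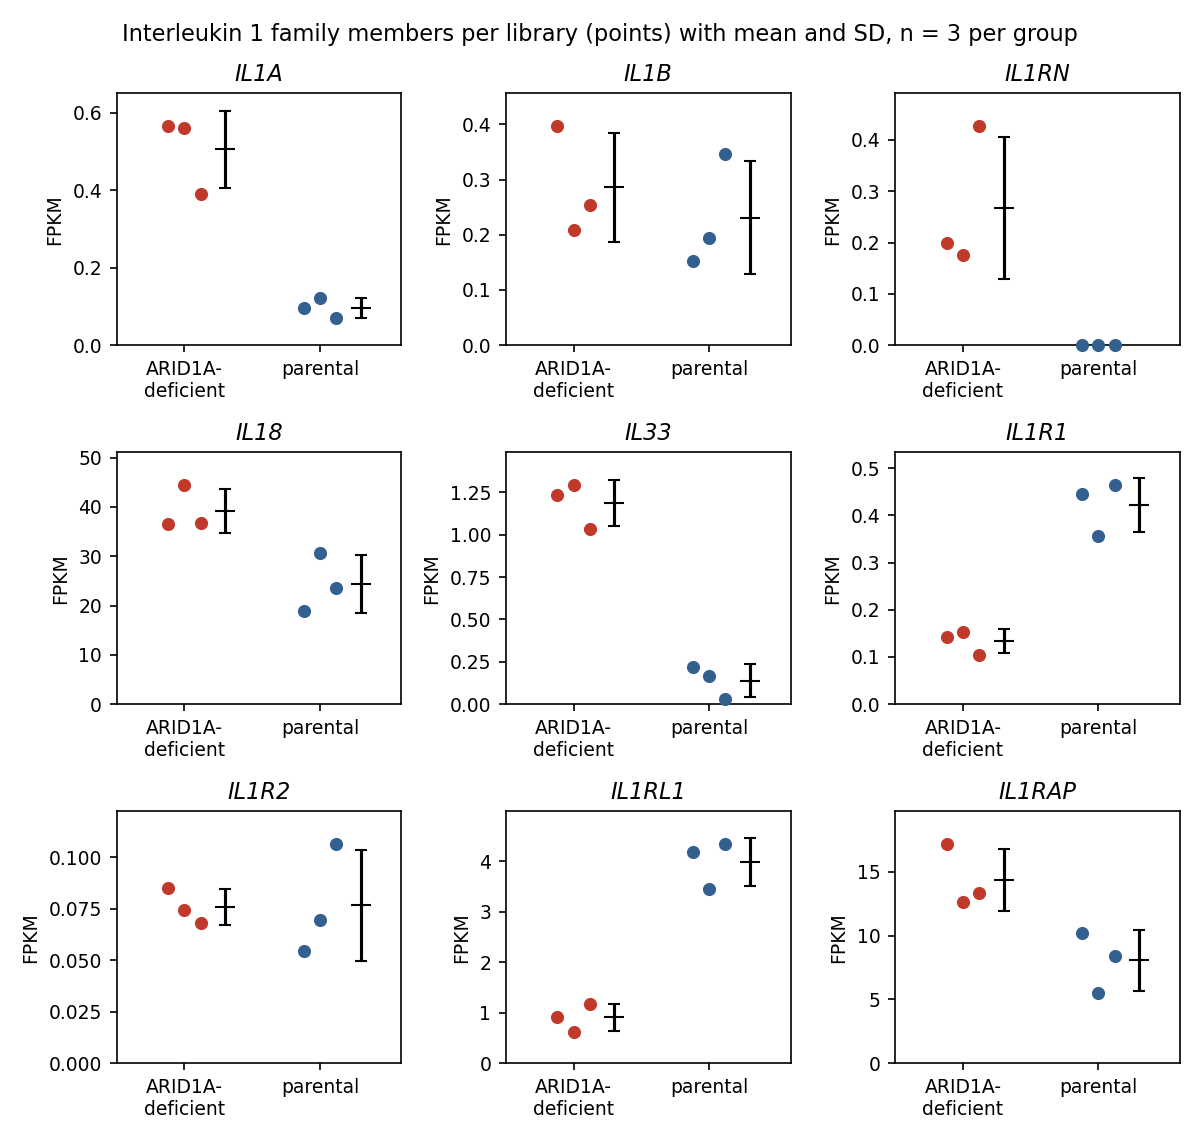
FPKM of each member (vertical axis, starting at 0) in the 3 ARID1A-deficient libraries (left, red) and the 3 parental libraries (right, blue); points are libraries, and black marks are the mean with SD, drawn only where no library is at 0. IL1A, IL1RN, IL18, IL33 and IL1RAP lie higher in all ARID1A-deficient libraries, IL1R1 and IL1RL1 lower, and IL1B and IL1R2 overlap.

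IL33 encodes a nuclear cytokine that is released from damaged epithelial cells as an alarm signal. It measured 1.24, 1.29 and 1.04 FPKM in ARID1A-deficient libraries 1, 2 and 3, against 0.220, 0.167 and 0.0302 FPKM in parental libraries 1, 2 and 3. The lowest ARID1A-deficient library lay several-fold above the highest parental one, and the groups did not overlap. The mean was 1.19 ± 0.134 FPKM in ARID1A-deficient cells and 0.139 ± 0.0981 FPKM in parental cells (SD, n = 3 each), a ratio of 8.53. The log2 fold change of FPKM + 1 was 0.94 (95% interval 0.70 to 1.19, limma adjusted p = 0.00137). That scale understates the change of a low gene, and with 0.1 FPKM added the log2 fold change was 2.52 (limma adjusted p = 0.00614). IL33 reached the mean needed for testing through its ARID1A-deficient libraries alone.

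IL1RL1, the receptor chain that binds IL33, measured 0.914, 0.624 and 1.18 FPKM in ARID1A-deficient libraries 1, 2 and 3, against 4.18, 3.45 and 4.33 FPKM in parental libraries 1, 2 and 3. All ARID1A-deficient libraries were below all parental libraries. The mean was 0.905 ± 0.276 FPKM in ARID1A-deficient cells and 3.99 ± 0.473 FPKM in parental cells (SD, n = 3 each), which is 4.41-fold lower. The log2 fold change was -1.39 (95% interval -1.72 to -1.06, limma adjusted p = 0.000999). The genes of ligand and receptor thus moved in opposite directions, IL33 higher and IL1RL1 lower. With a single value per gene, transcripts from the different start sites of IL1RL1 cannot be told apart.

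IL18, a ligand that many epithelial cells hold as a precursor, was the most abundant member in both groups. It measured 36.5, 44.4 and 36.8 FPKM in ARID1A-deficient libraries 1, 2 and 3, against 19.0, 30.7 and 23.5 FPKM in parental libraries 1, 2 and 3. The groups did not overlap, but the gap between the highest parental and the lowest ARID1A-deficient library was smaller than the range within the parental group. The mean was 39.2 ± 4.48 FPKM in ARID1A-deficient cells and 24.4 ± 5.90 FPKM in parental cells (SD, n = 3 each), a ratio of 1.61, with a log2 fold change of 0.69 (95% interval 0.27 to 1.11, limma adjusted p = 0.0426). This call ended when any single library except parental library 2 was left out (adjusted p up to 0.147), when low genes were kept in (adjusted p = 0.0582), and with no variance trend (adjusted p = 0.0581).

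IL1RAP, the accessory chain shared by IL1R1 and IL1RL1, measured 17.1, 12.6 and 13.3 FPKM in ARID1A-deficient libraries 1, 2 and 3, against 10.2, 5.48 and 8.43 FPKM in parental libraries 1, 2 and 3. Every ARID1A-deficient library was above every parental one. The mean was 14.4 ± 2.43 FPKM in ARID1A-deficient cells and 8.05 ± 2.40 FPKM in parental cells (SD, n = 3 each), a ratio of 1.79. The log2 fold change of 0.79 (95% interval 0.28 to 1.30) did not pass, with a limma adjusted p = 0.0514. Leaving out parental library 1 or 2 brought its adjusted p under the threshold (0.0293 and 0.0154), as did quantile normalization (0.0245). The adjusted p of IL1RAP rose to between 0.0996 and 0.152 when any other single library was dropped, and to 0.194 with equal totals.

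Parental library 2 held the highest parental value of IL18 and the lowest of IL1RAP. It also had the lowest slope of log2 values on transcript length, -0.0484 per doubling, against 0.0518 and 0.0243 in parental libraries 1 and 3 and -0.00583, -0.0216 and -0.000223 in ARID1A-deficient libraries 1, 2 and 3. With this slope as a covariate, the log2 fold change of IL18 was smaller, 0.56 (adjusted p = 0.00111), and that of IL1RAP was larger, 0.93 (adjusted p = 0.000503). IL33 and IL1RL1 kept their calls in the same fit, with adjusted p = 0.000521 and 0.000108.

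**Figure D2:**
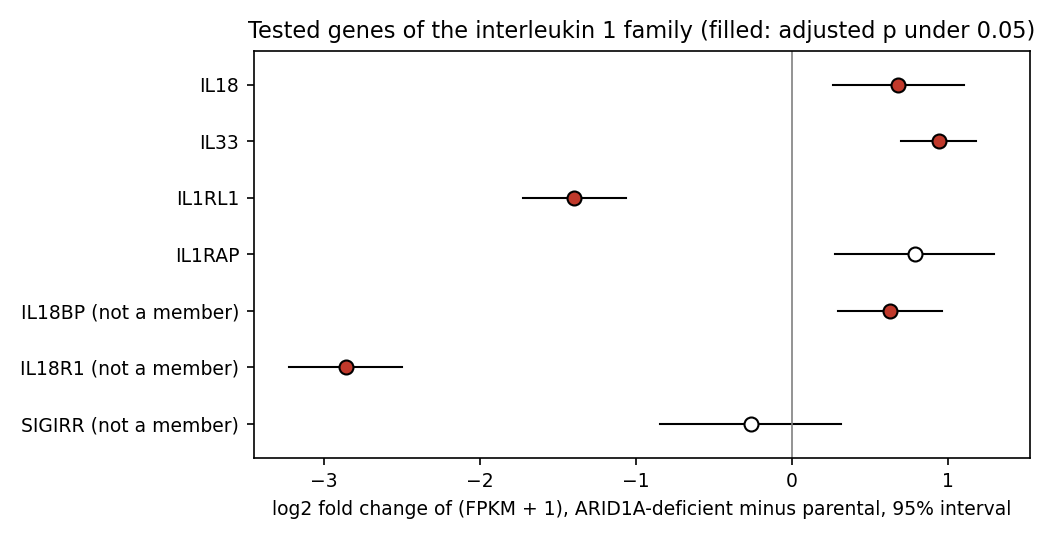
Log2 fold change of FPKM + 1, ARID1A-deficient minus parental (horizontal axis), with its 95% interval for the 4 tested members and for 3 further tested genes of the family; filled points passed limma at an adjusted p under 0.05. IL33 and IL18 lie to the right at 0.94 and 0.69, IL1RL1 at -1.39, and IL18R1 farthest to the left at -2.86.

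The members under 0.5 FPKM rest on few fragments. Multiplied by the relative depth of each library, the values of IL1A, IL1B, IL1RN, IL1R1 and IL1R2 were whole multiples of 1 step within 0.00286 of a step. If that step is 1 fragment, the multiples give the fragments behind each value; the true number could be a multiple of them. The summed relative depth of the ARID1A-deficient libraries was 0.999 times that of the parental libraries. IL33 did not resolve into whole steps with multipliers up to 12.

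IL1A, the gene of the alarm cytokine interleukin 1 alpha, measured 0.565, 0.560 and 0.392 FPKM in ARID1A-deficient libraries 1, 2 and 3, against 0.0961, 0.123 and 0.0706 FPKM in parental libraries 1, 2 and 3. These values stand for 30, 17 and 13 fragments in the ARID1A-deficient libraries and 4, 4 and 3 in the parental libraries. The groups did not overlap, and the ratio of means was 5.24. With no filter on low values its log2 fold change was 0.46 (limma adjusted p = 0.00472); in that fit 12.9% of 17832 genes passed, 6.97% higher and 5.98% lower.

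IL1B, the gene of the second agonist, measured 0.396, 0.208 and 0.254 FPKM in ARID1A-deficient libraries 1, 2 and 3, against 0.152, 0.194 and 0.346 FPKM in parental libraries 1, 2 and 3, or 17 against 13 fragments in all. The groups overlapped, and no difference was detectable at this depth (unfiltered limma log2 fold change 0.06, adjusted p = 0.677). IL1RN, the antagonist gene, measured 0.19995, 0.175 and 0.426 FPKM in ARID1A-deficient libraries 1, 2 and 3 and was listed at 0 in all 3 parental libraries. Its 6, 3 and 8 fragments gave an adjusted p = 0.0323 in the unfiltered limma fit. IL1RN entered that fit through its ARID1A-deficient libraries alone, so this value is not independent of its rise. A listed 0 can also be a failed estimate, so no fold is given.

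IL1R1, the signalling receptor for interleukin 1, measured 0.142, 0.153 and 0.105 FPKM in ARID1A-deficient libraries 1, 2 and 3, against 0.446, 0.356 and 0.463 FPKM in parental libraries 1, 2 and 3. This corresponds to 13, 8 and 6 fragments in the ARID1A-deficient libraries and 32, 20 and 34 in the parental libraries. The groups did not overlap, the mean was 3.17-fold lower in ARID1A-deficient cells, and the unfiltered limma fit gave a log2 fold change of -0.33 (adjusted p = 0.00650). The decoy receptor gene IL1R2 rested on 4 fragments in each group, with 0.0852, 0.0745 and 0.0681 FPKM in ARID1A-deficient libraries and 0.0543, 0.0693 and 0.106 FPKM in parental libraries. Its level was too low to compare (unfiltered limma adjusted p = 0.991).

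In ARID1A-deficient cells the order of mean levels per length was IL18, IL1RAP, IL33, IL1RL1, IL1A, IL1B, IL1RN, IL1R1 and IL1R2. In parental cells it was IL18, IL1RAP, IL1RL1, IL1R1, IL1B, IL33, IL1A, IL1R2 and IL1RN. The libraries of IL33 and IL1RL1, of IL1A and IL1B, and of IL1B and IL1RN overlapped in ARID1A-deficient cells, so these neighbours were not separated beyond their spread. The same held in parental cells for IL1B and IL33, for IL33 and IL1A, and for IL1A and IL1R2. IL1RL1 ranked above IL33 in parental cells, with no overlap. IL1R1 was above IL1A in every parental library and below it in every ARID1A-deficient library.

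Further genes of the family include the chains of the IL18 receptor. Of 13 other ligand, receptor and inhibitor genes, 3 were tested, with 1 higher, 1 lower and 1 not past the threshold, a median log2 fold change of -0.26. Over all tested genes 7.82% were higher and 8.11% lower, and 3 genes are too few to set against these shares. IL18R1, the receptor chain that binds IL18, measured 2.74, 1.92 and 2.13 FPKM in ARID1A-deficient libraries 1, 2 and 3, against 25.3, 18.5 and 24.5 FPKM in parental libraries 1, 2 and 3. It was 10.1-fold lower with a log2 fold change of -2.86 (95% interval -3.22 to -2.50, adjusted p = 5.80e-05 by limma). IL18RAP, its accessory chain, measured 0.125, 0.109 and 0 FPKM in ARID1A-deficient libraries 1, 2 and 3, against 0.478, 0.916 and 0.676 FPKM in parental libraries 1, 2 and 3, which corresponds to 9 against 71 fragments. IL18BP, the secreted inhibitor of IL18, rose 1.91-fold to 2.92 ± 0.494 FPKM in ARID1A-deficient cells, against 1.53 ± 0.321 FPKM in parental cells (SD, n = 3 each; limma adjusted p = 0.0250), a call lost when parental library 1 or ARID1A-deficient library 1 or 3 was left out (adjusted p up to 0.101) and with equal totals (0.104). SIGIRR, an inhibitory receptor of the family, did not pass (log2 fold change -0.26, 95% interval -0.84 to 0.32, limma adjusted p = 0.541). IL36A, IL36B, IL36RN, IL37, IL1F10 and IL1RL2 were listed at 0 in every library.

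The receptor genes that were lower are neighbours. In chromosomal order on chromosome 2, by a RefSeq table of GRCh38.p14, the run is MAP4K4, IL1R2, IL1R1, IL1RL2, IL1RL1, IL18R1, IL18RAP, a microRNA gene, SLC9A4 and SLC9A2. IL1R1, IL1RL1, IL18R1 and IL18RAP had lower values in every ARID1A-deficient library than in any parental library. The groups of IL1R2, next to IL1R1, overlapped, and IL1RL2 was listed at 0 in every library. The nearest tested gene on one side, MAP4K4, measured 28.9 ± 2.04 FPKM in ARID1A-deficient cells and 31.9 ± 3.77 FPKM in parental cells (SD, n = 3 each; log2 fold change -0.14, limma adjusted p = 0.484). SLC9A2, the nearest tested gene beyond IL18RAP, had a log2 fold change of -0.10 (limma adjusted p = 0.649). Among the 5 nearest tested genes on each side of the members, IL18R1 was the one that passed, and the median log2 fold change was -0.15. With IL18R1 included, 3 of these genes had an unadjusted limma p under 0.05, and the share of all tested genes that did so was not counted. The flanking genes C2orf29 and MFSD9 were lower without overlap of groups. Their log2 fold changes were -0.31 and -0.43 (limma adjusted p = 0.0567 and 0.0770). IL1RL1 and IL18R1 share 95 exon bases on the same strand in GENCODE 29, or 1.65% of the exon bases of IL1RL1, so a small part of their reads could be assigned to either gene. IL1RAP, on another chromosome, shares 535 exon bases on the same strand, or 4.63% of its own, with AC108747.1. That gene had no row, so some reads counted for IL1RAP could come from it.

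The ligand cluster, also on chromosome 2, runs from IL1A and IL1B through IL37, IL36G, IL36A, IL36B, IL36RN and IL1F10 to IL1RN. IL1A and IL1RN lie at its ends, and IL1B, whose groups overlapped, lies next to IL1A. Of the 10 flanking tested genes 1 passed, CBWD2 with a log2 fold change of -0.51 (limma adjusted p = 0.0159), and the median was -0.05. CBWD2 has near-identical copies elsewhere in the genome, so its value is uncertain, and its call was lost in 3 of 6 settings that left out 1 library (adjusted p up to 0.0842). For IL1RAP, on chromosome 3, of the 10 nearest tested genes 4 were higher and 1 was lower, with 15.9% called over all tested genes. CLDN1 had a log2 fold change of 1.35, HRASLS of 1.27, LEPREL1 of 0.69, MB21D2 of 0.68 and TPRG1 of -0.35 (limma), and the median of the 10 was 0.00. TPRG1 lost its call in 5 of 6 settings that left out 1 library (adjusted p up to 0.138), and the other 4 kept theirs. With equal totals CLDN1 and HRASLS kept their calls, while LEPREL1 (adjusted p = 0.0709), MB21D2 (0.0677), TPRG1 (0.122) and, near other members, CBWD2 (0.139) and NFIB (0.290) lost theirs. Around IL33, on chromosome 9, 1 of 10 passed (NFIB, log2 fold change 0.36; lost in 5 of 6 such settings, adjusted p up to 0.143). Around IL18, on chromosome 11, none of 10 passed limma, and 1 had an unadjusted p under 0.05. Such an unadjusted p was found for 3 of the 10 genes around the ligand cluster, 6 around IL1RAP and 3 around IL33. The share of all tested genes with such an unadjusted p was not counted, so these numbers do not set the neighbourhoods apart.

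**Figure D3:**
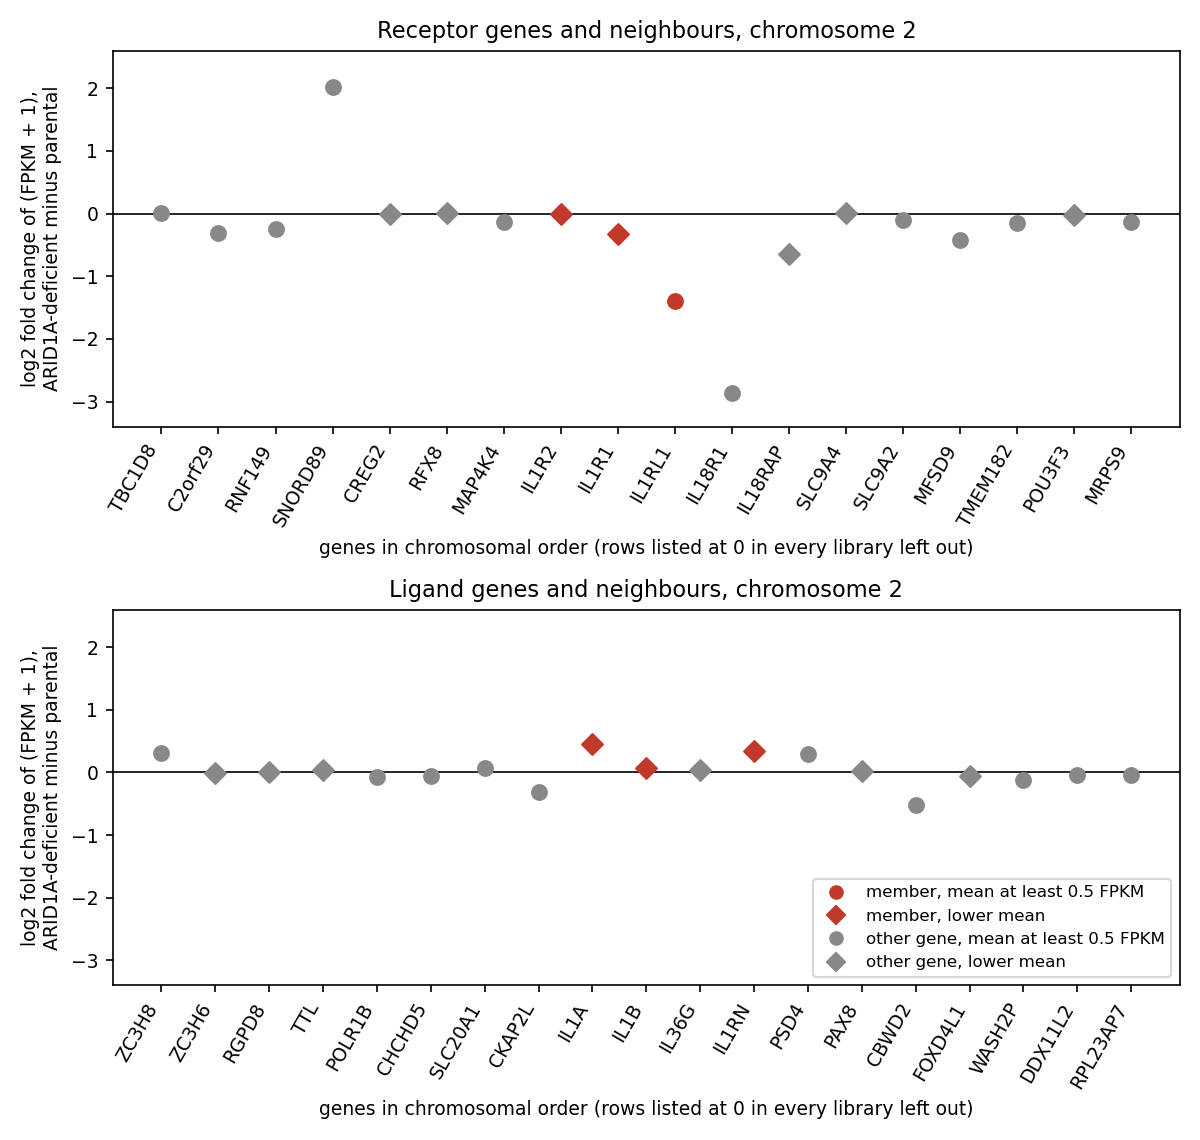
Log2 fold change of FPKM + 1 from the unfiltered fit, ARID1A-deficient minus parental (vertical axis), for genes in chromosomal order around the receptor members (top) and the ligand members (bottom); red marks members, grey other genes, circles tested genes and diamonds genes averaging under 0.5 FPKM. IL1R1, IL1RL1, IL18R1 and IL18RAP lie below 0. IL1RL2, between IL1R1 and IL1RL1, was listed at 0 in every library and is not drawn. IL1R2, next to IL1R1, lies at -0.000715. MAP4K4 and SLC9A2, the nearest tested genes outside the receptor genes, lie at -0.14 and -0.10. SNORD89, the highest point, had a 95% interval of -1.93 to 5.98.

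Downstream of the receptors, 17 adaptor, kinase and ubiquitin ligase genes were tested, of which 1 was higher, 1 lower and 15 not past the threshold, with a median log2 fold change of 0.03. Over all tested genes 15.9% passed, so these counts do not set the list apart. MYD88, the adaptor shared by the signalling receptors, had 15.1, 14.5 and 14.8 FPKM in ARID1A-deficient libraries 1, 2 and 3, against 15.2, 14.1 and 14.1 FPKM in parental libraries 1, 2 and 3 (log2 fold change 0.03, 95% interval -0.14 to 0.21). IRAK2, a kinase of the receptor complex, rose 1.67-fold (limma adjusted p = 0.0428), and PELI1, a ubiquitin ligase that acts on IRAK proteins, fell 2.05-fold (limma adjusted p = 0.0460). Both calls ended when any single library except parental library 2 was left out (adjusted p up to 0.160 for IRAK2 and 0.157 for PELI1), and also with low genes kept in, with no variance trend and with equal totals (adjusted p up to 0.204 for IRAK2 and 0.134 for PELI1).

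Among 14 tested genes of the inflammasome and of precursor processing, 1 was higher, 1 lower and 12 not past the threshold, with a median log2 fold change of -0.07, again beside 15.9% called over all tested genes. NLRP1, an inflammasome sensor, rose 2.002-fold to 1.08 ± 0.132 FPKM in ARID1A-deficient cells, against 0.539 ± 0.0728 FPKM in parental cells (SD, n = 3 each; limma adjusted p = 0.0217). CASP4, a caspase that senses bacterial lipopolysaccharide inside cells, measured 26.2, 25.7 and 23.8 FPKM in ARID1A-deficient libraries 1, 2 and 3, against 34.1, 39.0 and 34.7 FPKM in parental libraries 1, 2 and 3 (log2 fold change -0.49, limma adjusted p = 0.0122). The NLRP1 call was lost when parental library 3 or ARID1A-deficient library 1 or 3 was left out (adjusted p up to 0.101) and with equal totals (0.0828). The CASP4 call was lost when parental library 3 or ARID1A-deficient library 2 or 3 was left out (adjusted p up to 0.0728). CASP1, which cuts the IL1B and IL18 precursors, did not pass (log2 fold change -0.32, 95% interval -0.71 to 0.08, limma adjusted p = 0.260).

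Of 18 tested genes known to be induced by interleukin 1, 9 rose, 1 fell and 8 did not pass, with a median log2 fold change of 0.71, where 7.82% of all tested genes were higher and 8.11% lower. ICAM1, CSF3 and CCL2 reached the mean needed for testing through their ARID1A-deficient libraries alone, so their place among the tested genes is not independent of their rise. This list was drawn up with earlier results of these data known. They are also induced by other signals, such as tumour necrosis factor. The granulocyte growth factor gene CSF3 measured 2.82, 4.10 and 4.001 FPKM in ARID1A-deficient libraries 1, 2 and 3, against 0, 0 and 0.0503 FPKM in parental libraries 1, 2 and 3. LIF, a cytokine of the interleukin 6 family, rose 3.08-fold to 51.6 ± 2.59 FPKM in ARID1A-deficient cells, against 16.7 ± 0.735 FPKM in parental cells (SD, n = 3 each; limma adjusted p = 5.47e-05). BIRC3, an inhibitor of apoptosis and NF-kB target, rose 5.02-fold to 8.41 ± 0.638 FPKM in ARID1A-deficient cells, against 1.68 ± 0.198 FPKM in parental cells (SD, n = 3 each; limma adjusted p = 8.16e-05). The adhesion gene ICAM1 and the chemokine gene IL8, now named CXCL8, had log2 fold changes of 2.19 and 2.02, with limma adjusted p = 2.55e-05 and 5.26e-05. The others that rose were CXCL1, CCL2, NFKBIA, which encodes an NF-kB inhibitor, and the collagenase gene MMP1. PTGES, a prostaglandin E synthase, fell 2.72-fold to 1.63 ± 0.195 FPKM in ARID1A-deficient cells, against 4.42 ± 0.385 FPKM in parental cells (SD, n = 3 each; limma adjusted p = 0.00105). The 8 that did not pass went both ways. CXCL2, TNFAIP3, NFKBIZ and SOD2 lay above 0, and PTGS2, CXCL3, CXCL5 and ZC3H12A below 0. Groups did not overlap for CXCL2 and SOD2, with log2 fold changes of 0.53 and 0.18, and for PTGS2, at -0.33. IL6, too low to be tested, measured 0.314, 0.457 and 0.0837 FPKM in ARID1A-deficient libraries 1, 2 and 3. In every parental library IL6 was listed at 0.

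**Figure D4:**
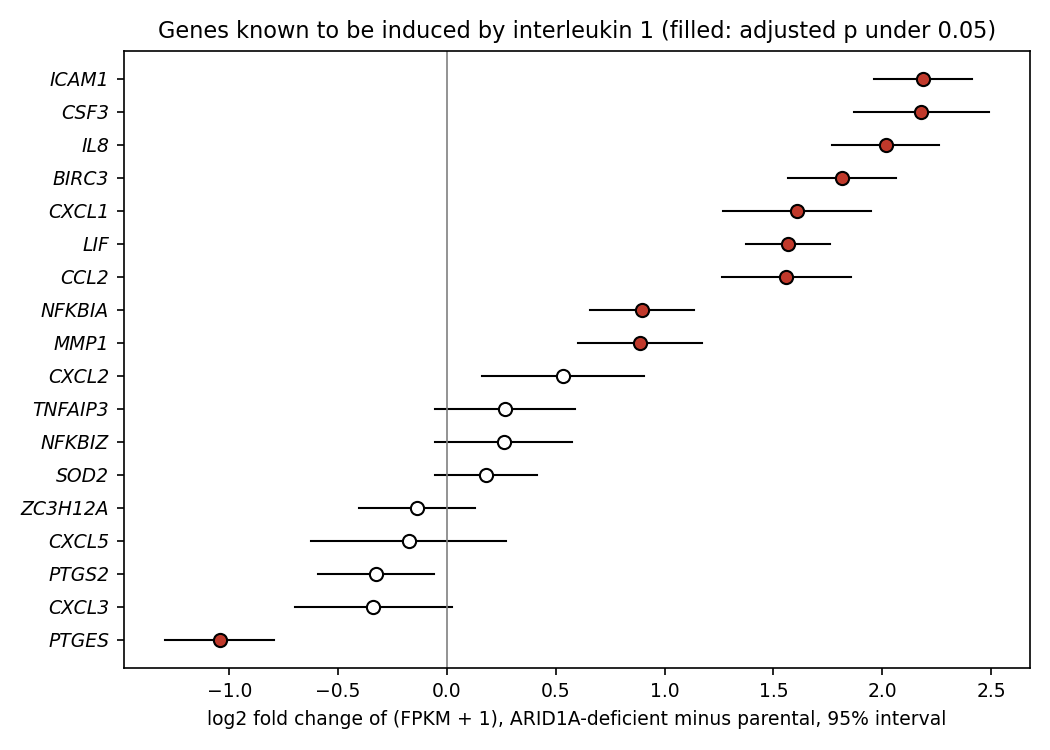
Log2 fold change of FPKM + 1, ARID1A-deficient minus parental (horizontal axis), with its 95% interval for the 18 tested genes known to be induced by interleukin 1; filled points passed limma at an adjusted p under 0.05. The 9 filled points on the right run from MMP1 at 0.89 to ICAM1 at 2.19, and PTGES is the filled point on the left at -1.05.

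The genes whose 6 values lay closest to those of IL18, by the root mean square difference of centred log2 values over genes averaging 3 FPKM or more, were CLTA at 0.0490, WTIP at 0.0503 and DYNLT1 at 0.0578. None of the 3 passed limma (adjusted p = 0.0729, 0.0761 and 0.0958; unadjusted p = 0.0139, 0.0149 and 0.0212). As in IL18, parental library 2 had the highest parental value of each. IL18 is the one member that both passed the test and reached that mean.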

How the data were processed

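Polyadenylated RNA of 6 samples was sequenced after TruSeq version 2 library preparation, per the labels' protocols; that kit does not mark strand. The authors deposited 1 FPKM value per gene and sample. The tools named per the submitters' processing notes are Cuffdiff 2.2.1.5, Cuffnorm 2.2.1.2 and TopHat2 2.1.1, and the build is GRCh37 (hg19). The annotation, any filter and the library scaling were not given in the sources used here. Groups and replicate numbers came from the sample titles. Each table had 23273 rows, of which 28 whose symbol had become a date were left out.

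Since the deposited FPKM are no counts, log2(FPKM + 1) was modelled by group alone in limma 3.58.1 under R 4.3.3, with a variance trend and robust moderation, over the 12826 genes averaging 0.5 FPKM or more. P-values are two-sided and Benjamini-Hochberg adjusted over all tested genes, with a threshold of 0.05, and ratios are of group means in FPKM. The procedure was tested on simulated data in which only genes averaging 3 FPKM or more were changed. Recovery of changes in lower genes, IL33 and IL1RL1 among them, was not tested. Total fragments are not given, so relative depth was read from the modal ratio to parental library 1 of 473 rows under 0.2 FPKM in every library. ARID1A-deficient libraries 1, 2 and 3 stood at 1.28, 0.729 and 0.797, and parental libraries 2 and 3 at 0.783 and 1.02; if values were not scaled to library totals it reflects the scaling factors. Counting error of few fragments adds to the spread between libraries at low values.

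The members and gene lists were chosen with earlier results of these data known. Genes named are the members, ARID1A, up to 4 called genes per direction from each list, called neighbours and the nearest patterns to called members. CSF3, IL18RAP, MYD88, CASP1, SIGIRR, CXCL1, CCL2, NFKBIA, MMP1, IL6 and the untested neighbours were added after their values were seen. The same holds for C2orf29, MFSD9, CXCL2, CXCL3, CXCL5, PTGS2, TNFAIP3, NFKBIZ, SOD2 and ZC3H12A. Alternatives were another pseudocount, other filters, 3 other scalings, no trend, a replicate block, a length covariate (96.3% of tested genes had a length) and leaving out each library. Promoters came from RefSeq on GRCh38.p14; IL18 had no entry. Since that build differs from the authors', no coordinates of the expression values are given.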

Additional observations from a re-analysis of the deposited data

How the results depend on the processing

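Leaving out 1 library at a time moved the number of all genes called between 522 and 2009 higher and between 438 and 2104 lower, the most in both directions without parental library 2. The range over these 6 settings was 1 to 3 for members higher and 1 to 1 for members lower. The log2 fold change ranged from 0.53 to 0.86 for IL18, from 0.57 to 0.96 for IL1RAP, from 0.87 to 0.995 for IL33 and from -1.50 to -1.28 for IL1RL1. IL33 and IL1RL1 kept their calls in all 6. Other family genes were 0 to 1 higher and 1 to 1 lower, adaptors and kinases 0 to 1 higher and 0 to 1 lower, processing genes 0 to 3 higher and 0 to 4 lower, and induced genes 9 to 10 higher and 1 to 3 lower.

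Testing genes of at least 3 FPKM alone gave 667 genes higher; members were 1 higher and 0 lower of 2 tested, other family genes 0 higher, adaptors 0 lower and processing genes 0 higher. With no filter members were 2 lower, other family genes 2 lower, and adaptors 0 higher and 0 lower, and IL18 (0.69) had an adjusted p = 0.0582. With no trend members were 1 higher, adaptors 0 higher and 0 lower, and processing genes 2 lower, and IL18 (0.69) had an adjusted p = 0.0581. With equal totals 681 genes were lower, other family genes 0 higher, adaptors 0 higher and 0 lower, and processing genes 0 higher and 2 lower. Quantile normalization gave 3 processing and 2 induced genes lower and IL1RAP at 0.82 (adjusted p = 0.0245), and median-ratio scaling 0 adaptors lower. The length covariate gave 1851 genes higher and 2296 lower, 2 other family genes lower, 2 adaptors higher and 2 lower, 4 processing genes higher and 4 lower, 2 induced genes lower and IL1RAP at 0.93 (adjusted p = 0.000503). The cause of these changes was not tested.

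The deviations of same-numbered libraries from their group means correlated at 0.219, 0.217 and -0.0131 for numbers 1, 2 and 3, so the numbers were not taken to pair the samples. With the replicate block 1861 genes were higher and 2188 lower, adaptors were 2 higher and 2 lower, processing genes 4 higher and 4 lower, induced genes 3 lower, and IL1RAP (0.79) had an adjusted p = 1.67e-05. None of IL18, IL33, IL1RL1 and IL1RAP changed direction under any alternative run; CSF3, CCL2, CXCL1, NFKBIA, MMP1, CD68 and PECAM1 were not followed singly. The difference of IL1R2, which rests on few fragments, was near 0 and changed sign between settings.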
